A study of Homo sapiens with 9 samples.

Results

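Caveolae are small flask-shaped invaginations of the plasma membrane. Caveolin-1 (CAV1) and caveolin-2 (CAV2) are the integral membrane proteins of their coat, and the cavins form a peripheral coat around it. Cavin-1 (PTRF) is needed to make caveolae, while cavin-2 (SDPR) and cavin-3 (PRKCDBP) join it and alter their shape and behaviour. EHD2 is an ATPase at the neck of the caveola, and PACSIN2 is an F-BAR protein that bends membrane there. In lung, caveolae are known as abundant in endothelium and alveolar type I cells.

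These 7 genes were followed across 9 RNA sequencing libraries, 3 from the ponatinib-resistant derivative PR2, 3 from the derivative PR1 and 3 from parental LC-2/ad, a human lung adenocarcinoma line with a CCDC6-RET fusion. Ponatinib inhibits several kinases, RET among them. Per the labels, PR2 and PR1 grew in 200 nM ponatinib, while the labels name no drug for parental LC-2/ad. Acquired resistance and drug exposure at the time of harvest cannot be told apart. The labels do not say whether each derivative is a clone, nor whether libraries A, B and C of a group are separate cultures. All p-values therefore reflect library-to-library spread alone, and that spread may be technical.

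The 7 genes were selected by symbol, from the first column of the deposited table, with earlier results of these libraries known. Each has a row of its own among 24069 rows, and none lies in a combined locus. SDPR had already been named among the leading rises of PR1, so its levels and fold changes are given without a test. For the other 6 genes the adjusted p-values describe the fit over all rows and are no independent support for the set as a group.

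All 7 genes passed the filter of at least 1 FPKM in 3 of the 9 libraries, which 12011 rows passed. CAV2 passed through PR2 and PR1 libraries alone, and PRKCDBP through the PR2 libraries and parental A. FPKM correct each fragment number for transcript length and for library size. Levels of different genes were set side by side on that basis, as listed levels, which may be too low for some genes. A gene was counted as changed at an adjusted p under 0.05 (limma on log2(FPKM + 1), two-sided, Benjamini-Hochberg over all rows). Fold changes on this scale understate the change of genes with low values.

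Between 11263 and 11629 rows reached 1 FPKM per library, and relative depth, read from single-fragment steps, was 0.750 to 1.01 of parental A. All 7 epithelial markers examined (EPCAM, KRT7, KRT8, KRT18, KRT19, CDH1, NKX2-1) were at 1 FPKM or more in at least 3 libraries. Their summed level was 6862 to 8864 FPKM in PR2, 4881 to 7223 FPKM in PR1 and 5476 to 6534 FPKM in parental cells. Single markers differed widely, with KRT18 means of 3.46 FPKM in PR2, 4.74 FPKM in PR1 and 6.80 FPKM in parental cells. KRT8 means were 1918, 2219 and 1670 FPKM in the same order. FLOT1, which most cells express, was listed at 0 in every library, which means that a listed 0 need not be a true absence. Whether the listed level of any other gene is too low was not tested.

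The A libraries of PR1 and parental cells stood apart for 4 of the 7 genes. In PR1 A the CAV1 level was 2.77 times the mean of PR1 B and C, and in parental A it was 4.65 times the mean of parental B and C. PTRF stood 3.04 times higher in PR1 A and 3.96 times higher in parental A by the same measure. CAV2 stood 2.49 times higher in PR1 A and 3.11 times higher in parental A. PRKCDBP did so in parental A, at 5.43 times. In PR2 A these ratios lay between 0.473 for CAV2 and 1.22 for PTRF. Fold changes and ratios of these genes are given with and without the 3 A libraries.

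Promoters of CAV1, CAV2 and SDPR are shown because these 3 genes had higher levels in both derivatives, and because the sequences of the caveolin pair and of the cavin differ in composition. The sequences come from RefSeq (GRCh38.p14) and run 5′ to 3′ on the gene's strand, from 250 bases before to 50 bases after the gene start. Of the 7 genes 5 were matched among the RefSeq promoters, SDPR under its newer symbol CAVIN2. Capitals mark GC boxes (GGGCGG or its complement CCGCCC) and the TEAD motif (GGAATG), the letters bound by the partners of YAP1. CAV1 lies at chr7:116524759-116525058 on the plus strand, CAV2 at chr7:116499488-116499787 on the plus strand and SDPR at chr2:191847039-191847338 on the minus strand.
CAV1: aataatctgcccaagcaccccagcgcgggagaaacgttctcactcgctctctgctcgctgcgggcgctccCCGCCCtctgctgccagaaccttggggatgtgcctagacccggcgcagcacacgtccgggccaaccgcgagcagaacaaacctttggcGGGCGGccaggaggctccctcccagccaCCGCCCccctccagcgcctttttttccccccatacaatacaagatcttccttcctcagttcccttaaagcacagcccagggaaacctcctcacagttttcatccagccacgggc
CAV2: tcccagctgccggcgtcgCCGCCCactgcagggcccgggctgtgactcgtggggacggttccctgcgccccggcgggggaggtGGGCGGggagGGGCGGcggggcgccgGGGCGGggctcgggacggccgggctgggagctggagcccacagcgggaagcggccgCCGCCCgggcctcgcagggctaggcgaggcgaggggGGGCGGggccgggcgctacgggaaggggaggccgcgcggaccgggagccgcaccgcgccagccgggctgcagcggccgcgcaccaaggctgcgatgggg
SDPR: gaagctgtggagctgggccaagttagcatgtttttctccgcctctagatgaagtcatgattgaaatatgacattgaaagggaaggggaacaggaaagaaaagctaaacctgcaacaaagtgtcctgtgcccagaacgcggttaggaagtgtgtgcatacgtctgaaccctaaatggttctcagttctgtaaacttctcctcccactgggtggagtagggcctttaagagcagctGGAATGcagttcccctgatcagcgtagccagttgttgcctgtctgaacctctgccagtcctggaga

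CAV1 and CAV2 are neighbours on chromosome 7, and their promoters held 3 and 6 GC boxes, with 19 and 43 CpG dinucleotides. Their GC content was 62.3% for CAV1 and 82.7% for CAV2, against a median of 58.3% over 27305 promoters of the same length. The SDPR promoter had no GC box, 5 CpG dinucleotides and a GC content of 49.3%. It held 1 TEAD motif, 16 to 11 bases before the gene start, which shares a base with an E-box (CANNTG). EHD2 had 1 GC box and PACSIN2 had 2. On either strand a GC box occurred in 44.5% of all promoters, a TEAD motif in 14.1%, an E-box in 69% and an AP-1 motif (TGANTCA) in 7.75%. The AP-1 motif and the TATA box (TATAAA, 12% of promoters) were in none of the 5 windows searched. These matches describe letters in a window and nothing about binding in these cells.

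CAV1 was among the most abundant transcripts of both derivatives. Its level was 360.3, 476 and 520.5 FPKM in PR2 (libraries A, B and C), 508, 201 and 166 FPKM in PR1, and 95.1, 23.4 and 17.5 FPKM in parental cells. Every derivative library lay above every parental library, whereas PR2 and PR1 overlapped, with PR1 A at the level of PR2. Means were 452 ± 82.7 FPKM in PR2, 292 ± 188 FPKM in PR1 and 45.4 ± 43.2 FPKM in parental cells (SD, n = 3 each). The PR2 mean placed CAV1 at the 99.1 percentile of rows above 0, the PR1 mean at the 98.5 percentile and the parental mean at the 89.0 percentile.

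CAV1 rose in both derivatives. The log2 fold change was 3.67 ± 0.58 (SE) in PR2 against parental cells, a ratio of means of 9.97 (limma, adjusted p = 0.0015). In PR1 against parental cells it was 2.88 ± 0.58, a ratio of means of 6.43 (limma, adjusted p = 0.0088). Both calls held in all 18 alternatives, and without the 3 A libraries the log2 fold changes were 4.55 in PR2 and 3.11 in PR1. Without parental A alone they were 4.40 in PR2 and 3.60 in PR1. Libraries of the same letter gave PR2 to parental ratios of 3.79 (A), 20.4 (B) and 29.7 (C), and PR1 to parental ratios of 5.34 (A), 8.57 (B) and 9.48 (C). The A libraries thus had the lowest ratio in each comparison with parental cells.

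Between the derivatives CAV1 was not shown to differ. The log2 fold change of PR2 against PR1 was 0.80 ± 0.58 (limma, adjusted p = 0.37), and the A libraries ran the other way, with a PR2 to PR1 ratio of 0.709. Ratios in libraries B and C were 2.38 and 3.13. Without the 3 A libraries the log2 fold change was 1.44, with a limma adjusted p of 0.0023. The call therefore depended on the A libraries.

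CAV2, which joins caveolin-1 in the coat, stayed near the lower limit of measurement. It had 0.907, 1.71 and 2.13 FPKM in PR2, 2.17, 1.05 and 0.704 FPKM in PR1, and 0.482, 0.255 and 0.0554 FPKM in parental cells. All derivative libraries were above all parental ones, and PR2 and PR1 overlapped. Means were 1.58 ± 0.620 FPKM in PR2, 1.31 ± 0.769 FPKM in PR1 and 0.264 ± 0.213 FPKM in parental cells (SD, n = 3 each), which are ratios of means of 5.99 and 4.95 to parental cells.

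In the fit over all rows CAV2 had a log2 fold change of 1.01 ± 0.26 in PR2 against parental cells (limma, adjusted p = 0.017). CAV2 had entered that fit through derivative libraries alone, so the values against parental cells are a description and support no rise. The threshold was missed without parental B (adjusted p = 0.055), parental C (0.065), PR2 B (0.054) or PR2 C (0.071). In PR1 the log2 fold change of 0.83 ± 0.26 did not pass (limma, adjusted p = 0.054, and 0.051 with the library letter as a block). It passed in 7 of 17 alternatives, with a pseudocount of 0.1 FPKM (log2 fold change 2.01, adjusted p = 0.033) and without the 3 A libraries (0.70, adjusted p = 0.026) among them. PR2 against PR1 gave 0.18 ± 0.26 (adjusted p = 0.67), and 0.64 without the 3 A libraries (adjusted p = 0.034).

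Cells that carry many caveolae were looked for through their markers. Of 6 alveolar type I markers 3 (CLIC5, HOPX and RTKN2) were at 1 FPKM or more in at least 3 libraries. The defining marker AGER was listed at 0 in all, which, as for FLOT1, need not be a true absence. The summed level of the 6 markers was 41.3 to 57.7 FPKM in PR2, 20.4 to 27.9 FPKM in PR1 and 7.87 to 14.02 FPKM in parental cells. CLIC5 made up most of this and was the 1 marker of the 6 that passed as higher, with 43.5 ± 10.7 FPKM in PR2, 14.8 ± 3.23 FPKM in PR1 and 4.15 ± 1.72 FPKM in parental cells (SD, n = 3 each). HOPX and RTKN2 did not pass in PR2 (limma, adjusted p = 0.55 and 0.40) or in PR1 (0.31 and 0.36) against parental cells. PDPN and AQP4 were listed at 0 in every PR2 library, and PDPN was at most 0.0113 FPKM in PR1 and 0.0704 FPKM in parental cells. AQP4 was at most 0.147 FPKM in PR1 and 0.0329 FPKM in parental cells. The part of such cells in the results was not tested, and in bulk RNA more cells of a type and more RNA per cell cannot be told apart.

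**Figure D1:**
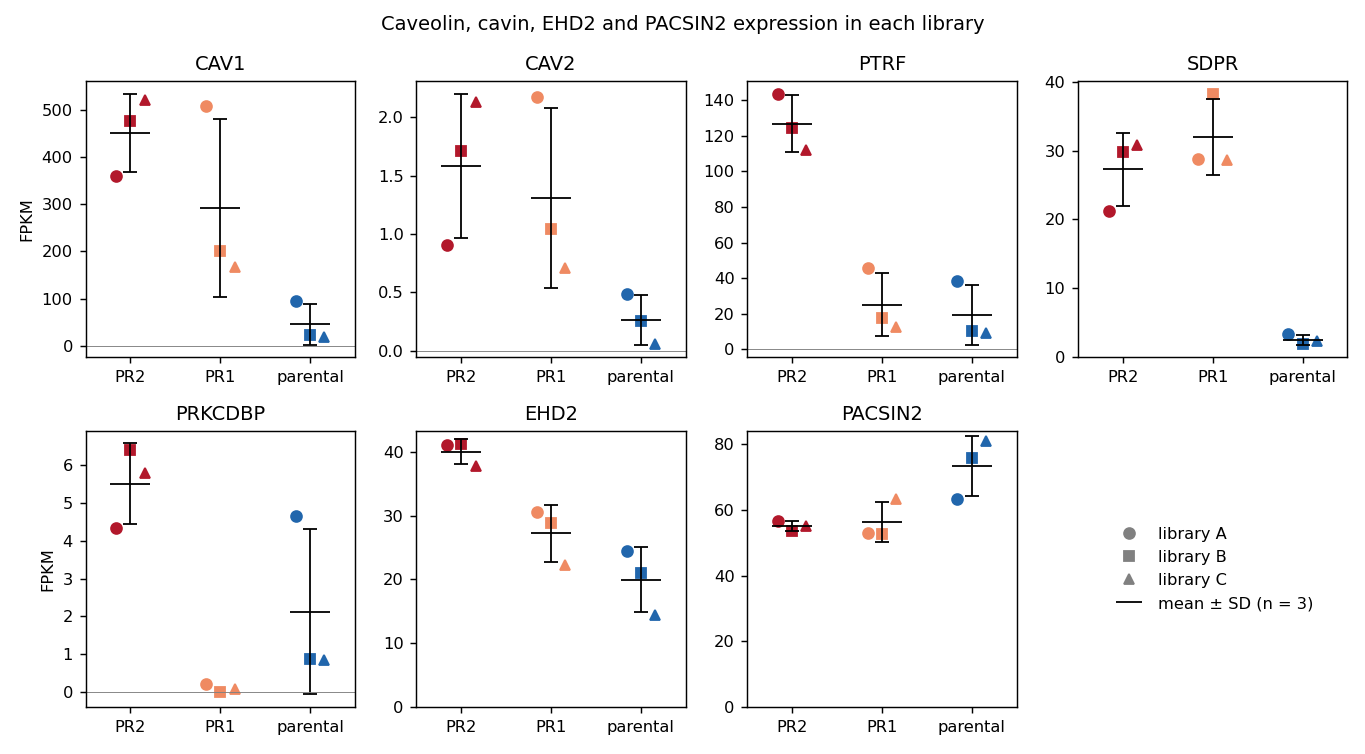
FPKM of each of the 7 genes in every library, with PR2, PR1 and parental cells on the x axis and a y axis of its own for each gene. Symbols stand for libraries A, B and C, and horizontal lines with bars give mean ± SD (n = 3), left out for PRKCDBP in PR1. CAV1 and SDPR were higher in both derivatives than in parental cells, PTRF stood at 112 to 144 FPKM in PR2 alone, and PRKCDBP was at most 0.200 FPKM in PR1.

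The caveolins differed greatly in listed level from each other. CAV2 was 0.252%, 0.359% and 0.409% of the CAV1 level in PR2 (libraries A, B and C), 0.428%, 0.521% and 0.424% in PR1, and 0.507%, 1.09% and 0.316% in parental cells. The log2 ratio was lower by 0.45 in PR2 than in PR1, with no overlap, and the exact two-sided permutation test gave its smallest possible p of 0.1 for 3 libraries against 3 (0.15 adjusted over 6 ratio comparisons). Against parental cells the difference was -0.75 in PR2 (exact permutation p = 0.3) and -0.29 in PR1 (exact permutation p = 0.8). Without parental B the PR1 difference had the opposite sign, 0.19, and the PR2 difference was -0.27, while without parental C the PR2 difference was -1.16. Without the 3 A libraries the differences were -0.61 in PR2 and -0.32 in PR1 against parental cells and -0.29 in PR2 against PR1, and the PR2 to PR1 difference was -0.25 without PR2 A.

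PTRF, the cavin that caveolae cannot form without, separated the derivatives. It had 144, 124 and 112 FPKM in PR2, 45.5, 17.5 and 12.5 FPKM in PR1, and 38.6, 10.2 and 9.29 FPKM in parental cells. The lowest PR2 library was above the highest of the other 6 libraries, and PR1 overlapped with parental cells. Means were 127 ± 15.9 FPKM in PR2, 25.1 ± 17.8 FPKM in PR1 and 19.4 ± 16.7 FPKM in parental cells (SD, n = 3 each).

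PTRF rose in PR2 against parental cells by a log2 fold change of 2.93 ± 0.54, a ratio of means of 6.53 (limma, adjusted p = 0.0034). It was also higher in PR2 than in PR1, by 2.49 ± 0.54, a ratio of means of 5.03 (limma, adjusted p = 0.010). Both calls held in all 18 alternatives. Without the 3 A libraries the log2 fold changes were 3.47 against parental cells and 2.91 against PR1, and without parental A alone the first was 3.56. In PR1 against parental cells the log2 fold change was 0.45 ± 0.54 (limma, adjusted p = 0.63). It was 0.55 without the 3 A libraries (adjusted p = 0.081). Over the alternatives this value ran from -0.07 without PR1 A to 1.07 without parental A, and none passed the threshold. The same-letter ratios of PR1 to parental cells were 1.18, 1.71 and 1.34, and those of PR2 to PR1 were 3.16, 7.09 and 8.99 (A, B and C).

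SDPR was higher in both derivatives than in parental cells. Its level was 21.2, 29.8 and 30.8 FPKM in PR2, 28.8, 38.3 and 28.7 FPKM in PR1, and 3.23, 1.82 and 2.28 FPKM in parental cells. The derivatives overlapped with each other, and both lay far above the parental libraries. Means were 27.3 ± 5.32 FPKM in PR2, 31.9 ± 5.52 FPKM in PR1 and 2.44 ± 0.716 FPKM in parental cells (SD, n = 3 each), ratios of 11.2 and 13.1 to the parental mean. The log2 fold change was 3.04 ± 0.21 for PR2 and 3.26 ± 0.21 for PR1 against parental cells, and -0.23 ± 0.21 for PR2 against PR1, given as a description because SDPR was already known as a leading rise. In the A libraries SDPR was not raised together with CAV1 in PR1, since PR1 A was 0.860 times the mean of PR1 B and C.

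PRKCDBP, a cavin that also binds protein kinase C delta, differed in level between the 2 derivatives. It had 4.34, 6.42 and 5.802 FPKM in PR2. In PR1 it had 0.200 FPKM in library A, was listed at 0 in library B, and had 0.0756 FPKM in library C. Parental A, B and C had 4.66, 0.876 and 0.841 FPKM. PR1 lay below all other libraries, while PR2 overlapped with parental cells through parental A alone.

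In the fit over all rows PRKCDBP had a log2 fold change of 2.57 ± 0.37 in PR2 against PR1 (limma, adjusted p = 0.0012). The threshold was passed in all 17 alternatives in which PRKCDBP was tested, and a filter of 5 FPKM left it untested. The log2 fold change was 2.78 without the 3 A libraries. PRKCDBP had entered that fit through the PR2 libraries and parental A, so its values are a description. They support no rise in PR2 and no fall in PR1. In PR1 against parental cells the log2 fold change was -1.31 ± 0.37 (limma, adjusted p = 0.039, and 0.029 with the library letter as a block). That value passed in 9 of 17 alternatives. Leaving out PR1 A, B or C gave adjusted p-values of 0.073, 0.098 and 0.11, and leaving out PR2 B or PR2 C gave 0.051 and 0.056. Without the 3 A libraries the log2 fold change was -0.84 (adjusted p = 0.0068).

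In PR2 against parental cells PRKCDBP had a log2 fold change of 1.26 ± 0.37 (limma, adjusted p = 0.033), which also passed in 9 of 17 alternatives. Without parental B or C the adjusted p was 0.13 and 0.12, without PR2 B or C it was 0.093 and 0.092, and without PR1 C it was 0.051. Without parental A the log2 fold change was 1.80 (adjusted p = 0.00015), and without the 3 A libraries it was 1.93 (adjusted p = 0.00013). In the A libraries alone PR2 and parental cells had nearly the same level, with a ratio of 0.931. Parental A, the one parental library at the PR2 level, also carried the higher CAV1 and PTRF levels given above.

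**Figure D2:**
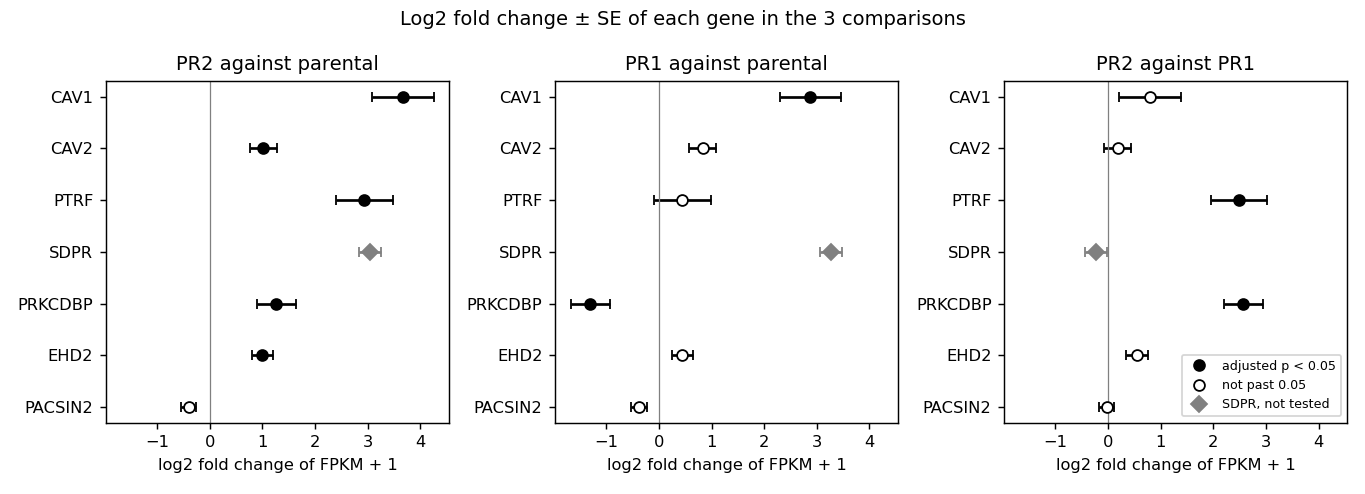
Log2 fold change of FPKM + 1 with its standard error for each gene, with 1 panel per comparison (PR2 or PR1 against parental cells, and PR2 against PR1). Filled circles passed an adjusted p of 0.05, open circles did not, and grey diamonds mark SDPR, which was not tested. PTRF and PRKCDBP are the 2 genes that passed in PR2 against PR1, at 2.49 and 2.57.

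The make-up of the cavin pool therefore differed in PR1, as a description of FPKM shares. Of the summed cavin level, PTRF held 84.9%, 77.4% and 75.4% in PR2, 61.0%, 31.4% and 30.2% in PR1, and 83.0%, 79.1% and 74.8% in parental cells (libraries A, B and C). PTRF was the largest share in every PR2 and parental library, and in PR1 A. SDPR held 38.7%, 68.6% and 69.6% in PR1, against 6.94%, 14.1% and 18.4% in parental cells. PR2 had SDPR shares of 12.5%, 18.6% and 20.7%, close to the parental range. PRKCDBP averaged 3.49% ± 0.801 in PR2 and 7.86% ± 1.87 in parental cells (SD, n = 3 each), and was at most 0.268% in PR1.

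PTRF was also set against CAV1 within each library, which removes library scaling. PTRF was 39.8%, 26.1% and 21.5% of the CAV1 level in PR2, 8.94%, 8.73% and 7.49% in PR1, and 40.6%, 43.7% and 53.0% in parental cells (A, B and C). PR1 was well below both other groups, and PR2 A lay just under parental A. The log2 ratio differed by -2.44 in PR1 against parental cells, by -0.69 in PR2 against parental cells and by 1.75 in PR2 against PR1. Each comparison reached the smallest two-sided exact permutation p that 3 libraries against 3 allow, 0.1, which is 0.15 adjusted over the 6 ratio comparisons and does not pass 0.05. Without the 3 A libraries the differences were -2.57 in PR1 and -1.02 in PR2 against parental cells, and 1.55 in PR2 against PR1. In PR1 the 3 ratios were close together although PR1 A had far more CAV1 and PTRF than PR1 B and C.

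**Figure D3:**
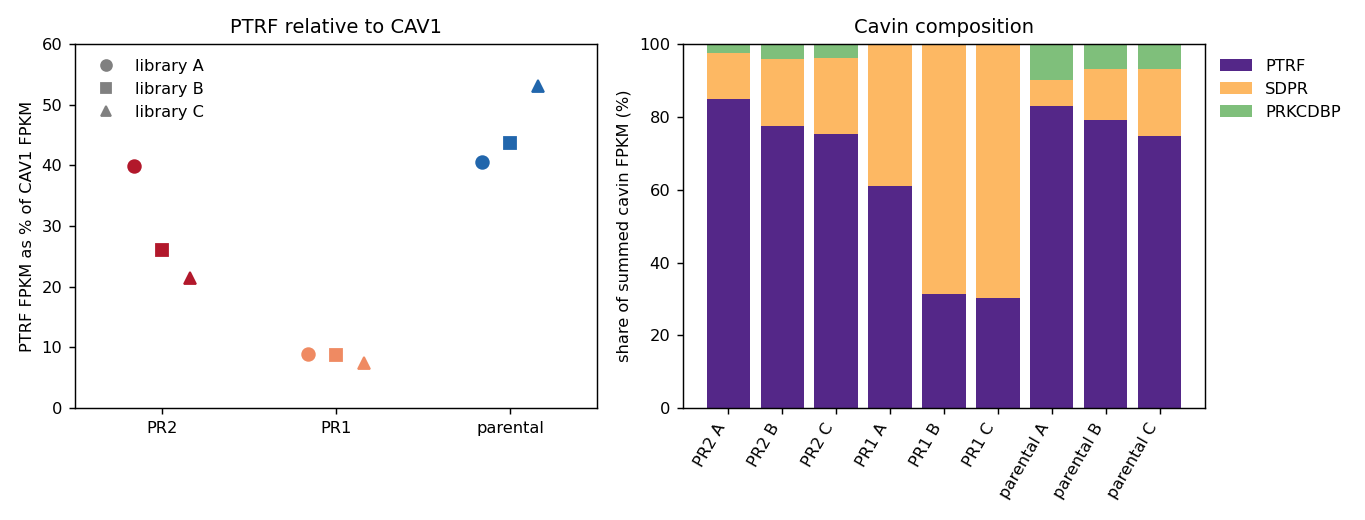
Left, PTRF as a percentage of CAV1 FPKM in each library, with symbols for libraries A, B and C. Right, the share of each cavin in the summed cavin FPKM of each library as stacked bars. PR1 had ratios of 7.49% to 8.94% and SDPR shares of 38.7% to 69.6%, while PTRF held at least 74.8% in every PR2 and parental library.

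EHD2, the ATPase at the caveola neck, was highest in PR2. It had 41.0, 41.1 and 37.7 FPKM in PR2, 30.6, 28.9 and 22.2 FPKM in PR1, and 24.5, 21.0 and 14.5 FPKM in parental cells. PR2 lay above all other libraries, and PR1 and parental cells overlapped. EHD2 rose in PR2, with a log2 fold change of 0.995 ± 0.20 and a ratio of means of 2.00 to parental cells (limma, adjusted p = 0.0057), in all 18 alternatives. In PR1 against parental cells the log2 fold change of 0.45 ± 0.20 did not pass (limma, adjusted p = 0.17), but did with the library letter as a block (0.043). PR2 against PR1 gave 0.55 ± 0.20 (limma, adjusted p = 0.082). It passed with the block (0.017), without parental C (0.042) and with only these 2 groups fitted (0.049).

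PACSIN2, the membrane-bending F-BAR protein, was the 1 gene of the set with a lower level in both derivatives. It had 56.7, 53.6 and 55.3 FPKM in PR2, 53.1, 52.7 and 63.4 FPKM in PR1, and 63.5, 75.9 and 81.2 FPKM in parental cells. No derivative library reached a parental one, although PR1 C and parental A were almost equal. The differences did not pass, with log2 fold changes of -0.40 ± 0.15 in PR2 (limma, adjusted p = 0.078) and -0.37 ± 0.15 in PR1 (limma, adjusted p = 0.12; 0.061 with the library letter as a block) against parental cells. The PR2 value passed without the 3 A libraries (-0.52, adjusted p = 0.041), without parental A (adjusted p = 0.044) and with no filter (0.0496). It also passed with the library letter as a block (0.039), although letters were not taken as pairs in that comparison. PR2 against PR1 gave -0.03 ± 0.15 (limma, adjusted p = 0.93).

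Over the 6 genes other than SDPR, 5 passed as higher and 0 as lower in PR2 against parental cells (limma). The 5 include CAV2, which the filter admitted through derivative libraries alone, and PRKCDBP, which it admitted through the PR2 libraries and parental A. Without these, CAV1, PTRF and EHD2 remain. Of all rows tested, 23.4% were called in that comparison, 13.6% higher and 9.83% lower. In PR1 against parental cells 1 gene, CAV1, passed as higher and 1 gene, PRKCDBP, passed as lower, the latter as a description. Of all rows, 15.5% were called there, 7.56% higher and 7.98% lower. In PR2 against PR1 the 2 genes PTRF and PRKCDBP were higher and 0 were lower. The share of all rows was 19.9% called, 11.0% higher and 8.92% lower. The 2 comparisons with parental cells share the parental libraries, so their values are set side by side and not correlated. Since the genes were proposed with results in view, nothing about the set is read from these counts.

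**Figure D4:**
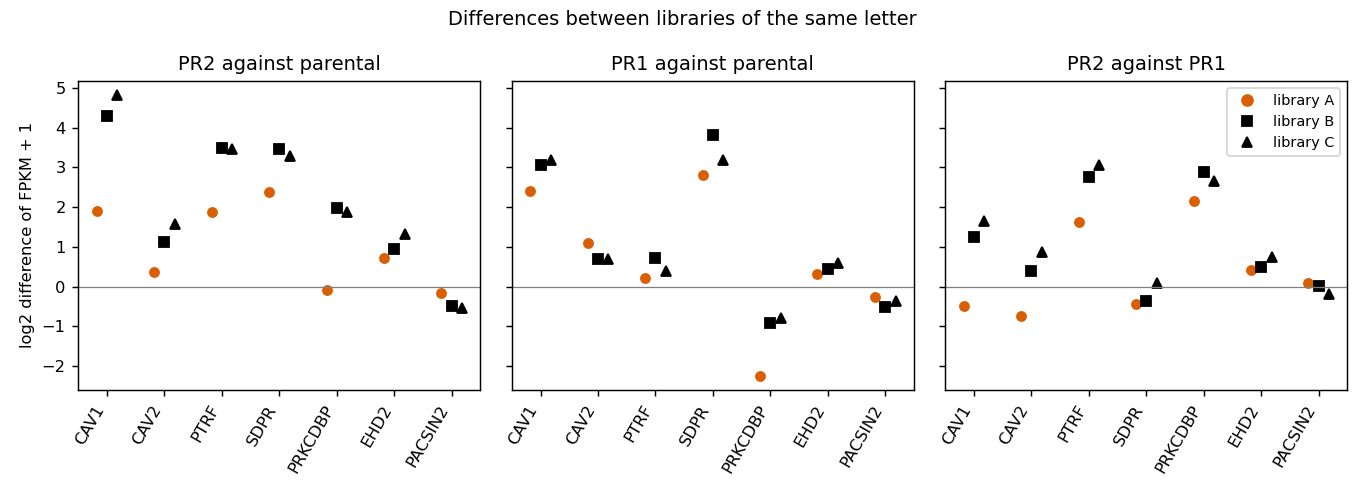
Log2 difference of FPKM + 1 between libraries of the same letter for each gene, with 1 panel per comparison. In PR2 against parental cells the A libraries (orange) had the smallest difference in size for each of the 7 genes, and for CAV1 and CAV2 the A difference between PR2 and PR1 was below 0.

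Across the 9 libraries the log2 levels of the genes varied together to different degrees. CAV1 correlated with CAV2 at 0.94 (Pearson), with EHD2 at 0.90, with SDPR at 0.89 and with PTRF at 0.80, and with PACSIN2 at -0.95. PTRF correlated with EHD2 at 0.91 and with PRKCDBP at 0.78, but with SDPR at 0.52. SDPR and PRKCDBP had a correlation of -0.03. These are descriptions, because the 9 libraries form 3 groups, and libraries share a group or a letter.

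The rows most like each gene over the 9 libraries were taken among 7921 or 7922 tested single-gene rows with a mean of at least 5 FPKM. For CAV1 these were MISP (r = 0.990), C2orf54 (0.989) and COL17A1 (0.986). MISP, a regulator of mitotic spindle position, had 121 ± 7.17 FPKM in PR2, 96.9 ± 28.2 FPKM in PR1 and 40.7 ± 13.7 FPKM in parental cells (SD, n = 3 each). CAV2 was most like ALPP (0.960), SERINC2 (0.958) and TLDC1 (0.952). PTRF was most like IL32 (0.983), FSTL3 (0.980) and C12orf75 (0.976), and IL32, a cytokine gene, had 84.3 ± 23.6 FPKM in PR2, 12.8 ± 12.5 FPKM in PR1 and 8.46 ± 6.06 FPKM in parental cells.

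SDPR was most like BMP4 (0.987), SAMD4A (0.982) and CYTH3 (0.981). BMP4, a secreted growth factor, had 26.8 ± 3.96 FPKM in PR2, 34.6 ± 5.70 FPKM in PR1 and 2.15 ± 0.319 FPKM in parental cells (SD, n = 3 each). PRKCDBP was most like ITGB4 (0.981) and GPX3 (0.978). GPX3, the secreted glutathione peroxidase, had 179 ± 31.4 FPKM in PR2, 27.8 ± 4.02 FPKM in PR1 and 65.2 ± 36.1 FPKM in parental cells. EHD2 was most like ALS2CL (0.972), MEGF6 (0.971) and MKNK1 (0.970), and PACSIN2 most like TSKU (0.947), SLC41A3 (0.946) and EIF2S3 (0.939).

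Among relatives of the 7 genes that had rows of their own, CAV3, EHD3 and PACSIN1 stayed under 1 FPKM in every library. CAV3, the muscle caveolin, was listed at 0 in PR2 and parental cells and was at most 0.0976 FPKM in PR1. EHD1, an ATPase of endocytic recycling, was the other relative with a row of its own. It had 61.2, 67.1 and 60.3 FPKM in PR2, 94.4, 79.7 and 80.1 FPKM in PR1, and 55.0, 46.7 and 52.6 FPKM in parental cells. EHD1 rose in PR1 against parental cells, by 0.71 ± 0.14 (limma, adjusted p = 0.0081), and its PR2 value was 0.29 ± 0.14 (limma, adjusted p = 0.17). EHD2 made up 38.8% ± 1.16 of the summed EHD1, EHD2 and EHD3 level in PR2, 24.2% ± 2.45 in PR1 and 27.4% ± 5.35 in parental cells (SD, n = 3 each). EHD3 averaged 0.217 FPKM in PR2, 0.0795 FPKM in PR1 and 0.906 FPKM in parental cells, and PACSIN1 0.186 FPKM in PR2, 0.115 FPKM in PR1 and 0.515 FPKM in parental cells. MURC (cavin-4), EHD4, PACSIN3 and FLOT2 lie in combined loci, and their values were not used.

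A list of 47 caveola genes was made by known function, with earlier results of these libraries known. It had 43 genes with rows of their own, of which 37 were tested, and nothing about the list is read from its counts. In PR2 against parental cells 9 were higher and 2 lower (11 of 37, beside 23.4% of all rows called). In PR1 against parental cells 8 were higher and 3 lower (11 of 37, beside 15.5%), and in PR2 against PR1 6 were higher and 4 lower (10 of 37, beside 19.9%). Their median log2 fold change was 0.17 in PR2 against parental cells, beside 0.03 over all rows, and 0.22 in PR1 against parental cells, beside 0.05. In PR2 against PR1 it was -0.11, beside 0.0038. With the library letter as a block 18 genes were called in PR1 against parental cells and 17 in PR2 against PR1. The same fit called 3088 and 3789 of all 12011 rows, more than the fit without a block.

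Partners of caveolae in signalling and trafficking (14 tested) held 5 genes that rose in PR2 against parental cells and 0 that fell, where 13.6% of all rows were called higher and 9.83% lower. FLNA, the actin crosslinker that binds caveolin-1, had 468, 281 and 295 FPKM in PR2, 269.9, 143 and 213 FPKM in PR1, and 204, 94.6 and 134 FPKM in parental cells. It rose in PR2 by a log2 fold change of 1.30 ± 0.32 (limma, adjusted p = 0.017), a call lost without parental B (0.069) or parental C (0.052). With the library letter as a block FLNA also passed in PR1 against parental cells (adjusted p = 0.023) and in PR2 against PR1 (0.0059). ABL2, a tyrosine kinase linked to the actin cytoskeleton, had 5.25 ± 0.945 FPKM in PR2, 3.14 ± 0.658 FPKM in PR1 and 1.97 ± 0.367 FPKM in parental cells (SD, n = 3 each). It rose in PR2 against parental cells by 1.07 ± 0.18 (limma, adjusted p = 0.0020). The other 3 that rose in PR2, named after their values were seen, were DNM1, ROR1 and VAMP2. DNM1, a dynamin that cuts vesicles from the membrane, averaged 4.42 FPKM in PR2, 0.818 FPKM in PR1 and 1.26 FPKM in parental cells. ROR1, a receptor that can hold CAV1 and PTRF together, averaged 3.69 FPKM in PR2, 2.87 FPKM in PR1 and 0.958 FPKM in parental cells, and rose in PR1 as well. VAMP2, a vesicle fusion protein, averaged 14.8 FPKM in PR2, 9.34 FPKM in PR1 and 8.79 FPKM in parental cells, and passed in 10 of 18 alternatives.

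SRC, the kinase that phosphorylates caveolin-1, was low in PR1 alone. It had 6.42, 10.4 and 8.68 FPKM in PR2, 2.27, 2.56 and 2.14 FPKM in PR1, and 9.54, 12.1 and 8.57 FPKM in parental cells. SRC fell in PR1 against parental cells by 1.72 ± 0.19 on the log2 scale (limma, adjusted p = 0.00031) and was higher in PR2 than in PR1 by 1.496 ± 0.19 (limma, adjusted p = 0.00055). Both calls held in all 18 alternatives. In PR2 against parental cells SRC had a log2 fold change of -0.23 ± 0.19 (limma, adjusted p = 0.42). Of the partners, 2 (ROR1 and the kinase ABL1, named after its values were seen) passed as higher in PR1 against parental cells. Another 2 (SRC and FYN) passed as lower there, where 7.56% of all rows were called higher and 7.98% lower. In PR2 against PR1 5 partners were higher and 0 lower, beside 11.0% and 8.92% of all rows. FYN, a kinase related to SRC and named after its values were seen, had means of 1.20 FPKM in PR2, 0.248 FPKM in PR1 and 1.88 FPKM in parental cells. The filter had admitted FYN through parental and PR2 libraries alone, so its values are a description and support no fall in PR1.

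Receptors and transporters reported in caveolae (11 tested) held 2 genes that rose and 1 that fell in PR2 against parental cells, 3 of 11 called beside 23.4% of all rows. For PR1 against parental cells 3 rose and 1 fell, beside 15.5% of all rows called, and in PR2 against PR1 0 were higher and 3 lower, beside 19.9%. TGFBR2, a TGF-beta receptor that caveolae can take up, had 26.9, 28.6 and 41.7 FPKM in PR2, 46.3, 61.2 and 73.2 FPKM in PR1, and 25.7, 14.2 and 24.6 FPKM in parental cells. PR1 was above all other libraries. TGFBR2 rose in PR1 against parental cells by 1.46 ± 0.26 (limma, adjusted p = 0.0050), in all 18 alternatives, and the PR2 value was 0.59 ± 0.26 (limma, adjusted p = 0.14). It was lower in PR2 than in PR1 by -0.88 ± 0.26 (limma, adjusted p = 0.042), a call that held in 9 of 18 alternatives. INSR, the insulin receptor and named after its values were seen, fell in both derivatives, with means of 1.37 FPKM in PR2, 0.712 FPKM in PR1 and 3.73 FPKM in parental cells.

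Regulators of caveola genes (11 tested) held 2 that rose and 1 that fell in PR2 against parental cells, and 2 that rose and 0 that fell in PR1 against parental cells. In PR2 against PR1, 1 was higher and 1 lower. These counts, 3, 2 and 2 of 11, are near the shares of all rows called, 23.4%, 15.5% and 19.9%. SREBF1, which controls sterol and lipid synthesis genes, had 13.4, 31.4 and 38.7 FPKM in PR2, 45.3, 70.6 and 80.7 FPKM in PR1, and 28.2, 36.9 and 36.0 FPKM in parental cells. It was lower in PR2 than in PR1 by a log2 fold change of -1.29 ± 0.35 (limma, adjusted p = 0.028), a call lost without PR1 B (0.081), without PR1 C (0.098), with no filter on low values (0.061) and with only these 2 groups fitted (0.057). Without PR2 A the log2 fold change was -0.85. In PR1 against parental cells SREBF1 passed with the library letter as a block (0.91, adjusted p = 0.012) and not without it (0.11). MKL1, a cofactor of serum response factor named after its values were seen, had 14.2 ± 0.446 FPKM in PR2, 8.69 ± 0.581 FPKM in PR1 and 8.37 ± 1.19 FPKM in parental cells (SD, n = 3 each). The 2 that rose in PR1 were YAP1 and MKL2, also named after their values were seen. YAP1, the coactivator that partners TEAD factors, averaged 59.5 FPKM in PR2, 65.1 FPKM in PR1 and 39.3 FPKM in parental cells, and passed in 8 of 18 alternatives. MKL2, a relative of MKL1, averaged 7.18 FPKM in PR2, 9.32 FPKM in PR1 and 5.42 FPKM in parental cells, and passed in 9 of 18. The 1 that fell in PR2 was WWTR1, also named after its values were seen. WWTR1 averaged 11.8 FPKM in PR2, 14.9 FPKM in PR1 and 17.5 FPKM in parental cells. Its log2 fold change in PR2 against parental cells was -0.53 ± 0.15 (limma, adjusted p = 0.033), which passed in 10 of 18 alternatives.

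Markers of other cell types known for caveolae stayed low. Of 6 endothelial markers 1 (KDR) reached 1 FPKM in 3 libraries, EMCN was listed at 0 in all, and the sums were 0.628 to 3.55 FPKM in PR2, 2.24 to 7.89 FPKM in PR1 and 2.62 to 3.74 FPKM in parental cells. Of 6 fibroblast markers 1 (COL1A1) did so, with sums of 9.48 to 10.8 FPKM in PR2, 5.98 to 8.43 FPKM in PR1 and 3.64 to 8.04 FPKM in parental cells. Of 4 smooth muscle markers with rows of their own 1 (ACTA2) did so, with sums of 4.20 to 5.98 FPKM in PR2, 4.88 to 8.62 FPKM in PR1 and 4.71 to 7.82 FPKM in parental cells. Of 4 adipocyte markers 0 did so, ADIPOQ was listed at 0, and no value exceeded 0.0830 FPKM.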

How the data were processed

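RNA of 9 libraries was measured after column isolation and TruSeq preparation, per the labels' protocols. The authors deposited 1 value per gene and library, read here as FPKM, an inference from Cufflinks being named and from the steps between low values. Builds GRCh37 and hg19 and the tools Cuffdiff 2.2.1, Cufflinks 2.2.1 and TopHat2 2.0.14 are listed in the submitters' processing notes. Read totals: not given in the sources used here. Columns summed to between 571570 and 686460, and every value column was mapped to a library.

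Values were analysed as log2(FPKM + 1) in R 4.3.3 with limma 3.58.1 (1 mean per group over all 9 libraries, intensity trend, two-sided), with Benjamini-Hochberg adjustment over 12011 rows that reached 1 FPKM in at least 3 libraries. Scripts were tested on simulated data. Members and lists were chosen with earlier results of these data known. Relatives of the members were named in any case, and other genes of the list at a log2 change of 1 or more and a mean of at least 5 FPKM, with exceptions marked, and for likeness the 3 nearest rows per gene, of which 1 is not reported here.

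Letters A, B and C were checked for pairing by the correlation of same-letter deviations from group means. It was 0.311, 0.477 and 0.163 in PR1 and parental cells and 0.527, 0.544 and 0.254 in PR2 and PR1. Letters were therefore taken as pairs there, but only in the fit with the library letter as a block. In PR2 and parental cells the correlation was 0.296, 0.417 and 0.0140, so letters were not taken as pairs. The main fit took no pairs, and limma p-values come from it unless the block or another setting is named. Alternatives changed the pseudocount, filter, scaling, trend, groups fitted, block and libraries.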

Additional observations from a re-analysis of the deposited data

Results flagged for a closer look

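The change against parental cells differed between the derivatives for 2 of the 6 genes tested, as tested by PR2 against PR1. Of all rows 19.9% were called there, and nothing about the set is read from this count. PTRF was higher in PR2 than in PR1 by a log2 fold change of 2.49 (limma, adjusted p = 0.010), in 3 of 3 same-letter comparisons. PRKCDBP was higher in PR2 than in PR1 by a log2 fold change of 2.57 (limma, adjusted p = 0.0012), also in 3 of 3, with a 0 listed for PR1 B. The filter had admitted PRKCDBP through the PR2 libraries and parental A, so its value is a description.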

How the results depend on the processing

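Of 318 values of the 6 genes other than SDPR under alternatives, 281 stayed on their side of the threshold, 20 lost the call and 17 gained it. The sign changed in 5 of the 281, all without a call, namely PTRF in PR1 against parental cells (-0.07 without PR1 A), CAV2 in PR2 against PR1 (-0.01 without PR1 C) and PACSIN2 in PR2 against PR1 (0.04 to 0.08 by quantile normalization, by TPM and without PR1 C). Members past the threshold were 5 in PR2 against parental cells (3 at a filter of 5 FPKM, which leaves CAV2 and PRKCDBP untested; 3 to 6 with 1 library left out), 2 in PR1 against parental cells (1 with no filter, 1 at 5 FPKM; 1 to 3 with 1 library left out) and 2 in PR2 against PR1 (1 at 5 FPKM, 4 without the 3 A libraries, 2 to 3 with 1 library left out). Pathway genes past it were 11 in PR2 against parental cells (6 at 5 FPKM; 5 to 11 with 1 library left out), 11 in PR1 against parental cells (7 with only these groups fitted; 5 to 12) and 10 in PR2 against PR1 (6 at 5 FPKM; 5 to 11). With the replicate block, the paired fit, 18 pathway genes passed in PR1 against parental cells and 17 in PR2 against PR1, beside 3088 and 3789 of all rows. Members past the threshold were then 3 in each of these comparisons, and EHD2 passed in both (0.043 and 0.017). With a pseudocount of 1 FPKM the CAV2 to CAV1 log2 ratio differed by -2.66 in PR2 and by -2.04 in PR1 against parental cells, since CAV2 then nears a constant. Over all rows, 2814 were called in PR2 against parental cells (1811 at 5 FPKM, 1870 without parental B, 1805 without PR2 C), 1866 in PR1 against parental cells (1207 at 5 FPKM, 3088 with the block, 1166 without parental B, 1141 without PR1 C) and 2395 in PR2 against PR1 (1573 at 5 FPKM, 3789 with the block, 1592 without PR1 B, 1464 without PR2 B, 1420 without PR2 C). Rescaling to TPM moved the median log2 fold change of all rows in PR2 against parental cells to 0.18, beside 0.03, and no call of CAV1, PTRF or EHD2 there was lost. Read totals are unknown, so no counting error can be given for the low CAV2 and PRKCDBP values. Why calls changed was not tested, beyond fewer rows or libraries.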

Other observations

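Genes beside CAV2 and CAV1 on chromosome 7 were looked at after their values were seen, in the order MDFIC, TFEC, TES, CAV2, CAV1, MET, CAPZA2 and ST7. MDFIC averaged 14.95 FPKM in PR2, 15.6 FPKM in PR1 and 7.62 FPKM in parental cells, a rise in PR2 (log2 fold change 0.93, limma adjusted p = 0.012) and in PR1 (0.99, adjusted p = 0.013). TES averaged 86.2 FPKM in PR2, 69.3 FPKM in PR1 and 54.9 FPKM in parental cells, a rise in PR2 (0.67, limma adjusted p = 0.045), while PR1 did not pass (0.37, adjusted p = 0.28). MET, the receptor of hepatocyte growth factor on the other side of CAV1, averaged 89.7 FPKM in PR2, 110.1 FPKM in PR1 and 87.2 FPKM in parental cells, and did not pass in PR2 (limma adjusted p = 0.87) or PR1 (0.28). CAPZA2 and ST7 did not pass against parental cells either, and TFEC was at most 0.0117 FPKM.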
